A study of Mus musculus with 8 samples.

Results

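CD90-positive (CD90pos) and CD90-negative (CD90neg) mouse mammary tumour cells were compared after both populations had been exposed to interferon gamma (IFNg). The comparison takes 4 of the 8 RNA sequencing libraries, 2 of CD90pos cells and 2 of CD90neg cells, and pairs them by the letter A or B that the labels give each library. The cells are labelled as the line PyMT, from primary mammary tumour tissue and of genotype WT. PyMT stands for the polyoma middle T oncogene that drives these tumours. CD90pos IFNg and CD90neg IFNg cells had received 10 IU/ml IFNg for 24 h. CD90pos control and CD90neg control cells, with 2 libraries each, show where the difference with IFNg departs from the difference without it. The control libraries also enter the main test, where they help to estimate the spread and the effect of the letter. All 4 groups were grown in medium with 2% serum, 10 ug/ml insulin and 20 ng/ml EGF. The labels do not say whether sorting came before or after the cytokine, what the letters stand for, or whether the libraries came from separate cultures or tumours. The p-values therefore measure the spread between these libraries, which may be technical.

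CD90 is a small glycolipid-anchored surface protein encoded by Thy1, found on T cells, neurons, fibroblasts and, in the mammary gland, on part of the basal epithelium. Mammary epithelium has an outer basal or myoepithelial layer, which contracts through smooth muscle actin and myosin to eject milk, and an inner luminal layer, which makes milk proteins. IFNg binds a receptor that signals through the kinases JAK1 and JAK2, and so switches on antigen presentation genes, guanylate-binding proteins and T cell chemokines.

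The IFNg libraries held 35952019 and 35144542 reads in CD90pos cells (A and B) and 39304070 and 40899909 in CD90neg cells, as recovered from the deposited values. Mitochondrially encoded genes took 1.23% and 0.952% of the reads in CD90pos IFNg libraries and 1.28% and 0.927% in CD90neg IFNg libraries. Control libraries held 31243646 and 32246195 reads in CD90pos cells and 32852037 and 32772045 in CD90neg cells. Their mitochondrial share was 2.31% and 0.670% in CD90pos cells and 1.24% and 1.56% in CD90neg cells. That share was higher in CD90pos control cells in A and lower in B, and its part in the differences without IFNg was not tested. Values are normalized reads, which are read counts divided by a factor per library and not corrected for gene length. The letters differed more than the populations did, since 51.5% of the variance lay on a principal component that set A apart from B. The luminal keratin Krt8 was abundant in every IFNg library, with 182867 and 312660 normalized reads in CD90pos cells and 137167 and 314509 in CD90neg cells (A and B), as was the epithelial adhesion gene Epcam with 15515 and 18406 against 13743 and 20467. Of 20 leukocyte markers 7 were measured, and their summed level was 1771 and 891 normalized reads in CD90pos IFNg cells against 2169 and 1039 in CD90neg IFNg cells. The 14 of 20 fibroblast markers measured summed to 43934 and 25096 in CD90pos IFNg cells against 42507 and 19918 in CD90neg IFNg cells, most of it from Fbln2 and Gsn. Among the defining fibroblast genes, Dcn had 3.95 and 23.5 normalized reads in CD90pos IFNg cells against 3.54 and 40.9 in CD90neg IFNg cells, while Col1a2 had 57.3 and 1023 against 96.4 and 928. In RNA from whole populations, fewer cells of a type and less RNA per cell cannot be told apart.

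Thy1 (GRCm38 chromosome 9, 44043384 to 44048579) was the gene the cells were sorted on, so its level checks the labels and is no finding. It had 2195 and 3936 normalized reads in CD90pos IFNg cells against 55.7 and 65.5 in CD90neg IFNg cells (A and B), and the populations lay far apart in both letters. The log2 difference was 5.58 (SE 0.58).

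Apart from the sort marker, the populations were alike after IFNg for most genes, and no gene passed the test. Differences were tested with limma on log2(normalized reads + 1) over 12962 genes, with all 8 libraries, a mean per group and the letter as a block, and a gene was called at a Benjamini-Hochberg adjusted p under 0.05. In CD90pos against CD90neg IFNg cells, 0 of 12962 genes (0.0%) were called by limma, with a lowest adjusted p of 0.432, and 168 had an unadjusted p under 0.05, 109 of them higher and 59 lower in CD90pos cells. This fit did not call Thy1 either, although it differed by 38.7-fold in A and 59.2-fold in B (folds are of normalized reads plus 1), so a gene that missed the threshold is not shown to be equal. The spread in this fit is estimated over all 8 libraries, and the SE of Thy1 was 0.58 in it and 0.17 in limma fitted to the 4 IFNg libraries. Fitted to those 4 libraries, with the letter as a block and 1 residual degree of freedom, limma called 10 genes (0.0771%), 6 higher (0.0463%) and 4 lower (0.0309%). DESeq2 on the recovered reads of all 8 libraries called 17 genes (0.131%), 9 higher (0.0694%) and 8 lower (0.0617%). The quasi-likelihood test of edgeR called 0 genes in 8 libraries, with 185 at an unadjusted p under 0.05, and in the 4 IFNg libraries it called 1 (0.00771%), Thy1. Of the 21 genes called by any of these fits, 6 were called both by DESeq2 and by limma in 4 libraries, namely Thy1, Acta1, Prl2c3, Aldh3a1, Col5a1 and Lce1h.

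The median absolute log2 difference between the populations was 0.0856 with IFNg and 0.315 without it. The standard deviation of the log2 difference over genes was 0.257 with IFNg and 0.519 without. For 80.8% of genes the 95% confidence interval of the difference with IFNg lay within 2-fold in either direction. In both letters CD90pos IFNg cells were higher for 3384 genes (26.1%) and lower for 3485 (26.9%), and for 6064 genes the letters had opposite signs. A difference of at least 1.5-fold in both letters was found for 106 genes higher (0.818%) and 106 genes lower (0.818%) with IFNg, against 825 higher (6.36%) and 292 lower (2.25%) without it. Both CD90pos IFNg libraries lay above both CD90neg IFNg libraries for 911 genes (7.03%) and below them for 903 (6.97%). Across genes, which are not independent replicates, the A and B differences had a Spearman correlation of 0.0756 with IFNg and 0.385 without.

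**Figure D1:**
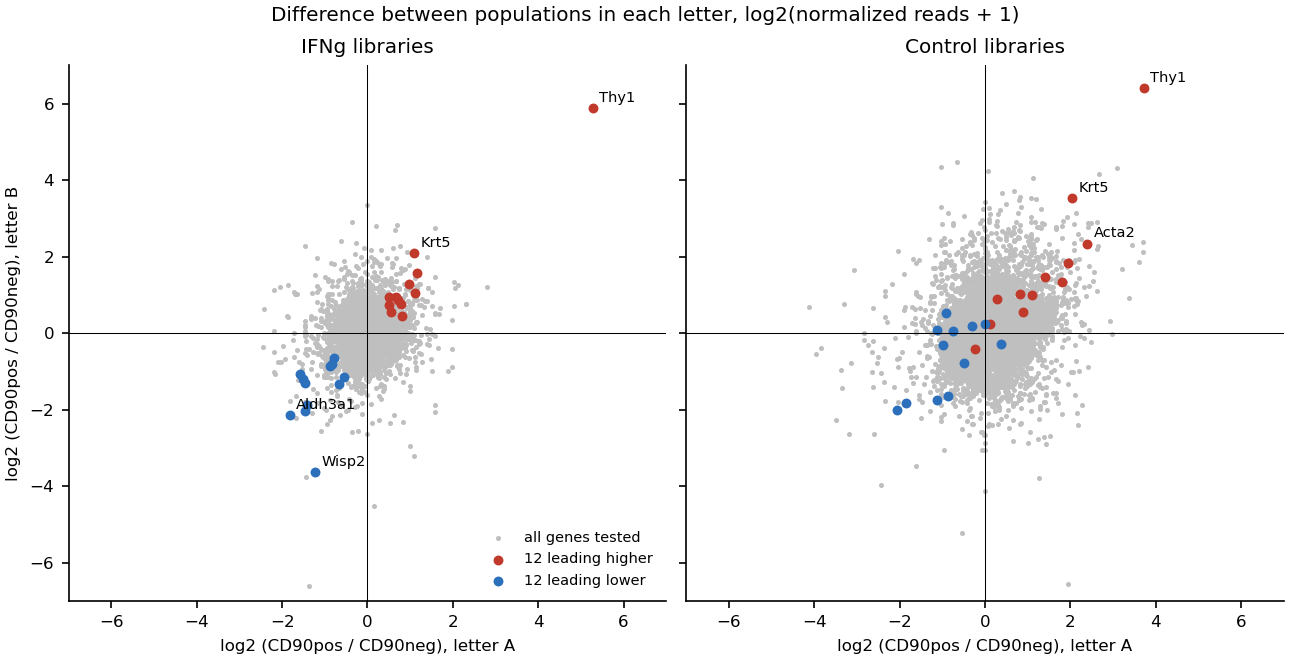
Log2 difference between CD90pos and CD90neg cells in letter A (x axis) and letter B (y axis), on the log2(normalized reads + 1) scale, for all 12962 genes (grey), with IFNg on the left and in control libraries on the right. The 12 genes named as higher (red) and the 12 named as lower (blue) were chosen from the left panel. The grey cloud is narrower with IFNg, with a standard deviation over genes of 0.257 against 0.519 in control libraries.

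The genes named as leading have the smallest p among those with the same sign in both letters and a mean of at least 100 normalized reads in the higher group, 12 in each direction, and none is called by limma in 8 libraries. The 12 leading genes that were higher in CD90pos cells are Thy1, Acta2, Acta1, Krt5, Lce1h, Adam12, Tnfrsf11b, Mme, D7Ertd443e, Lpp, Ppic and Igfbp7. Acta2, smooth muscle alpha actin (chromosome 19, 34241090 to 34255336), had 1639 and 129112 normalized reads in CD90pos IFNg cells against 1027 and 67619 in CD90neg IFNg cells. Its level was higher in CD90pos cells within each letter, by 1.60-fold in A and 1.91-fold in B, but letter B exceeded letter A by 78.8-fold in CD90pos and 65.9-fold in CD90neg IFNg cells, so the groups overlapped. The log2 difference of Acta2 was 0.80 (SE 0.12), with an adjusted p of 4.29e-05 by DESeq2 and 0.0616 by limma in 4 libraries.

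Acta1, skeletal muscle alpha actin (chromosome 8, 123891769 to 123894751), had 657 and 6395 normalized reads in CD90pos IFNg cells against 292 and 2159 in CD90neg IFNg cells. The difference was 2.25-fold in A and 2.96-fold in B, a log2 difference of 1.37 (SE 0.22), called by DESeq2 at an adjusted p of 0.000116 and by limma in 4 libraries at 0.0366. Actin genes are near-identical in their coding parts, so how reads were divided between them is uncertain. Krt5, the basal keratin (chromosome 15, 101707070 to 101712891), had 328 and 13452 normalized reads in CD90pos IFNg cells against 153 and 3170 in CD90neg IFNg cells. Its log2 difference was 1.59 (SE 0.39), with an adjusted p of 0.0121 by DESeq2. Again the 2 letters differed more than the populations, and CD90pos cells were higher within each.

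In 5 other leading genes the groups did not overlap, where 7.03% of all genes were higher without overlap. Leading genes were chosen for a small p in these libraries, which favours such a pattern. Lce1h, of the late cornified envelope family (chromosome 3, 92763215 to 92765065), had 1118 and 838 normalized reads in CD90pos IFNg cells against 516 and 403 in CD90neg IFNg cells, a log2 difference of 1.08 (SE 0.24). Adam12, a membrane metalloproteinase (chromosome 7, 133883199 to 134232146), averaged 5665 ± 553 normalized reads in CD90pos IFNg cells and 3507 ± 1090 in CD90neg IFNg cells (SD, n = 2 each). Tnfrsf11b, the decoy receptor osteoprotegerin (chromosome 15), had 834 and 639 normalized reads against 487 and 374. Mme, the cell surface peptidase neprilysin that marks myoepithelium (chromosome 3), had 2135 and 1897 against 1222 and 1394. D7Ertd443e (chromosome 7) had 341 and 484 normalized reads against 173 and 197, a log2 difference of 1.13 (SE 0.22). In each of these both CD90pos IFNg libraries exceeded both CD90neg IFNg libraries. Lpp, a focal adhesion protein, Ppic, a cyclophilin, and Igfbp7, a secreted insulin-like growth factor binding protein, complete the 12, with log2 differences of 0.55 (SE 0.11), 0.79 (SE 0.14) and 0.61 (SE 0.16), and in these the groups overlapped. Without IFNg, Lpp alone among the 12 had a negative log2 difference, -0.33 (SE 0.11). Ppic was at 1.89 (SE 0.14) there and Igfbp7 at 0.59 (SE 0.16). For Lpp the difference with IFNg less that without it was 0.88 (SE 0.16), with an adjusted p of 0.179 by limma.

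The 12 leading genes that were lower in CD90pos cells are Wisp2, Aldh3a1, Thbs2, Col5a1, Ltf, Cyp26b1, Tnfaip2, Prl2c3, Prl2c2, Apod, Klk6 and Klk10. Wisp2, of the CCN family of matrix-associated signalling proteins (chromosome 2, 163820861 to 163833146), had 207 and 77.6 normalized reads in CD90pos IFNg cells against 485 and 982 in CD90neg IFNg cells. The difference was larger in letter B, with a mean log2 difference of -2.43 (SE 0.55) and an adjusted p of 0.00231 by DESeq2. Aldh3a1, an aldehyde dehydrogenase (chromosome 11, 61207537 to 61218421), had 81.0 and 89.9 normalized reads in CD90pos IFNg cells against 287 and 401 in CD90neg IFNg cells, without overlap. Its log2 difference was -1.98 (SE 0.40), called by DESeq2 (adjusted p 0.00558) and by limma in 4 libraries (adjusted p 0.0483). Thbs2, a matricellular thrombospondin (chromosome 17, 14665500 to 14694262), had 127 and 109 normalized reads in CD90pos IFNg cells against 341 and 404 in CD90neg IFNg cells, a log2 difference of -1.65 (SE 0.32). Col5a1, a fibrillar collagen chain (chromosome 2, 27886425 to 28039514), had 464 and 1036 against 1280 and 2576, a log2 difference of -1.39 (SE 0.29). For Thbs2 and Col5a1, too, both CD90pos IFNg libraries lay below both CD90neg IFNg libraries, as they did for 6.97% of all genes. Without IFNg the same differences were 0.04 (SE 0.55) for Wisp2, -0.35 (SE 0.40) for Aldh3a1, -0.06 (SE 0.32) for Thbs2 and -0.53 (SE 0.29) for Col5a1, and limma called none of these 4. In each of them the letters had opposite signs without IFNg. Col5a1 was at -1.12 in A and 0.07 in B, and Aldh3a1 at -0.76 and 0.05. For Wisp2 the values were 0.37 and -0.28, and for Thbs2 -0.31 and 0.18. The difference with IFNg less that without it was -2.48 (SE 0.77) for Wisp2 and -1.58 (SE 0.46) for Thbs2, with adjusted p of 0.221 and 0.210 by limma. It was -1.63 (SE 0.57) for Aldh3a1 and -0.86 (SE 0.40) for Col5a1, with adjusted p of 0.245 and 0.352 by limma. A change of the population difference by IFNg was thus not called by limma in 8 libraries for any of the 4. DESeq2 called such a change for 583 genes (4.5%), and its result for these 4 is not given here.

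Ltf, the milk and innate immune protein lactoferrin (chromosome 9, 111019271 to 111042767), had 254 and 11565 normalized reads in CD90pos IFNg cells against 371 and 25874 in CD90neg IFNg cells, a log2 difference of -0.85 (SE 0.17). Cyp26b1, which degrades retinoic acid, had 530 and 129 against 1588 and 272, and Tnfaip2, a TNF-induced gene, 1121 and 1032 against 1930 and 1613. Prl2c3, of the proliferin branch of the prolactin family, had 14945 and 121 normalized reads in CD90pos IFNg cells against 26708 and 214 in CD90neg IFNg cells. Its neighbour Prl2c2 had 5058 and 119 against 9328 and 218, and these copies are so alike that their counts are uncertain as single genes. Both were lower in CD90pos cells within each letter, by a log2 difference of -0.83 (SE 0.15) for Prl2c3 and -0.88 (SE 0.21) for Prl2c2. Apod, a secreted lipocalin, had 173 against 708 normalized reads in letter B and was under the floor of 3 reads in both A libraries, so it has no fold in A.

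**Figure D2:**
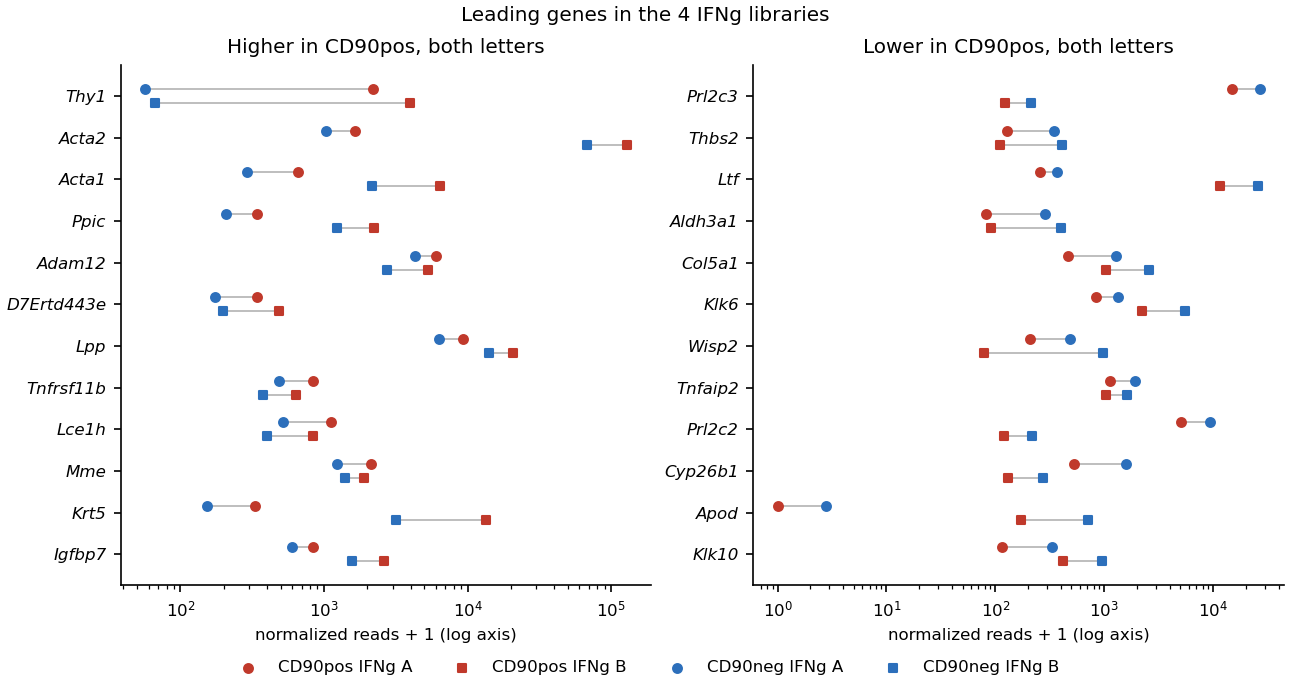
Normalized reads plus 1 (log axis) of the 24 leading genes in the 4 IFNg libraries, CD90pos in red and CD90neg in blue, with letter A as circles and letter B as squares, and a line joining the libraries of a letter. Higher genes are on the left and lower genes on the right. Thy1, the sort marker, is the widest pair, and for Acta2 and Prl2c3 the letters lie further apart than the populations.

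Klk6 and Klk10 are kallikreins, secreted serine proteases, and are encoded near each other on chromosome 7 with Klk7 and Klk8 between them. All 5 kallikreins measured were lower in CD90pos IFNg cells in both letters, where 26.9% of all genes were, with a median log2 difference of -1.07. The family was chosen after its values were seen, so these counts are no test of it. Klk6 had 834 and 2200 normalized reads in CD90pos IFNg cells against 1328 and 5492 in CD90neg IFNg cells, and Klk10 had 115 and 413 against 331 and 959. Klk7 had 42.5 and 223 against 69.9 and 704, Klk8 3566 and 1762 against 4391 and 2813, and Klk14 11.8 and 67.4 against 14.2 and 256. Of the 5, 3 were at least 1.5-fold lower in both letters, where 0.818% of all genes were, and Klk6 was called by DESeq2 (adjusted p 0.0249). The family was lower without IFNg as well, with log2 differences of -1.44 (SE 0.21) for Klk6 and -2.03 (SE 0.37) for Klk10, both called by limma there (adjusted p 0.0288 and 0.0313).

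The contractile program of smooth muscle and myoepithelium was the gene group with the highest median among 36 lists. Of its 20 genes 18 were measured, 15 of them were higher in CD90pos IFNg cells in both letters and 1 was lower, where 26.1% of all genes were higher in both. The median log2 difference was 0.43 over the list (0.38 in A and 0.35 in B), against -0.00108 over all genes, and no member was called by limma in 8 libraries. Myh11, smooth muscle myosin heavy chain, had 122 and 16446 normalized reads in CD90pos IFNg cells against 53.9 and 7298 in CD90neg IFNg cells, and Cnn1, calponin, had 135 and 8198 against 65.4 and 4840. Tagln, transgelin, had 680 and 54860 against 443 and 28939, and Myl9, a myosin light chain, 426 and 12339 against 283 and 6750. These 4 were each higher within both letters, with log2 differences of 1.17 (SE 0.32), 0.90 (SE 0.30), 0.77 (SE 0.20) and 0.73 (SE 0.34). Tpm1, a widely expressed tropomyosin, differed less, with 101668 and 113140 normalized reads in CD90pos IFNg cells against 93140 and 93990 in CD90neg IFNg cells. Oxtr, the oxytocin receptor, was the member lower in both letters, with 246 against 776 normalized reads in B, while its CD90pos library of letter A was under the floor of 3 reads. Of the list's 5 members at least 1.5-fold higher in both letters, all but Myl9 had an unadjusted p under 0.05.

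Promoters are shown for both alpha actins because Acta1 and Acta2 stood near the top of the comparison. They are RefSeq windows on GRCm38.p6 of 250 bases before to 50 bases after the gene start, read on the minus strand, and Acta1 lies at chr8:123894726-123895025 and Acta2 at chr19:34255324-34255623. Capitals mark the strict CArG box CCWWWWWWGG (W is A or T), to which serum response factor can bind. They also mark the MCAT element CATTCC, to which TEAD factors can bind. Both were read on either strand.
Acta1: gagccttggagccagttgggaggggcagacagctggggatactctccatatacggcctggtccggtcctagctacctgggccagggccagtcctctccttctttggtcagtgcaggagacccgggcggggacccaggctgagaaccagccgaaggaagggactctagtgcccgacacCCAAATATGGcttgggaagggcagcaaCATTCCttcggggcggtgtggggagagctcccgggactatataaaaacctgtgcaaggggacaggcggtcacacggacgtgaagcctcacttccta
Acta2: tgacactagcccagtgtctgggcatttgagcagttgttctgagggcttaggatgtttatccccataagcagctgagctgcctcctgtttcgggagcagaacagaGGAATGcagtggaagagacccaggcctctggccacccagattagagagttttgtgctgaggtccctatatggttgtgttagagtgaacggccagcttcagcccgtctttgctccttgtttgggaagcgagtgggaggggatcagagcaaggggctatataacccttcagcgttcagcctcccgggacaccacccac
The Acta1 window held 1 CArG box, starting 73 bases before the gene start (-73), and 1 MCAT element at -46, and these did not overlap. The Acta2 window held 1 MCAT element at -146 and no strict CArG box. It did hold ccctatatgg and ccttgtttgg, each 1 base off the strict pattern, which were not searched for and stay in lower case. The lack of a strict match therefore does not show that serum response factor cannot bind there, and binding was not tested. Of all 32851 RefSeq windows, 1.63% held a CArG box and 14.7% an MCAT element, on either strand. Of the 18 contractile genes 15 had windows, 17 in all, and 2 of these held a CArG box and 7 an MCAT element. A match describes these letters only.

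Over the list of basal and myoepithelial genes, the median difference between the populations was larger in letter B than in letter A. Of 20 such genes 19 were measured, with 10 higher and 2 lower in both letters, where 26.1% and 26.9% of all genes were. The median log2 difference was 0.11 in A and 1.01 in B. The 2 lower were keratins, Krt16 at -0.40 in A and -0.85 in B, and Krt6b at -0.51 and -0.11. Col17a1, a hemidesmosomal collagen, had 289 and 9321 normalized reads in CD90pos IFNg cells against 169 and 1933 in CD90neg IFNg cells. For Trp63, the transcription factor that specifies basal epithelium, the values were 123 and 1080 against 124 and 432. In B the CD90pos library was more than 2-fold higher for both, and in A the populations were close for Trp63. None of the 19 genes was called by limma in 8 libraries.

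The 21 of 22 luminal genes measured had a median log2 difference of -0.05, with 2 higher and 5 lower in both letters. Elf5, which directs alveolar differentiation, had 8.89 and 725 normalized reads in CD90pos IFNg cells against 16.8 and 1625 in CD90neg IFNg cells. Of 14 milk and secretory genes measured, 7 were lower and 0 higher in both letters, where 26.9% of all genes were lower in both, and the median was -0.32. Of the others, the milk casein Csn3 had 2809 and 10746 normalized reads in CD90pos IFNg cells against 1212 and 15356 in CD90neg IFNg cells, so it was higher in A and lower in B. Spp1, the secreted phosphoprotein osteopontin, had 8754 and 3459 normalized reads in CD90pos IFNg cells against 17162 and 6893 in CD90neg IFNg cells, a log2 difference of -0.98 (SE 0.57), and limma in 4 libraries called it (adjusted p 0.0181). Slpi, a secreted protease inhibitor, had 815 and 2647 against 1598 and 3709. For Spp1 and Slpi CD90pos cells were lower in each letter, though the letters overlap between groups.

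Matrix genes did not move as 1 group. All 28 collagen and matrix genes were measured, with 7 higher and 7 lower in both letters and a median log2 difference of -0.11 (-0.28 in A and 0.16 in B). The 4 that were at least 1.5-fold lower in both letters were Col5a1, Thbs2, Bgn and Col3a1. Col3a1, a fibrillar collagen, had 20.7 and 155 normalized reads in CD90pos IFNg cells against 34.5 and 476 in CD90neg IFNg cells, and Bgn, biglycan, had 1565 and 1439 against 2407 and 3449. Fn1, fibronectin, was the opposite case, with 386250 and 115318 normalized reads in CD90pos IFNg cells against 283383 and 44514 in CD90neg IFNg cells, a log2 difference of 0.91 (SE 0.26). Some fibroblast genes lay with the lower collagens: Pdgfrb, a receptor of mesenchymal cells, had 18.8 and 131 normalized reads in CD90pos IFNg cells against 38.0 and 534 in CD90neg IFNg cells. The matrix protease Mmp2 had 74.1 and 562 against 91.1 and 1342. Over all 14 fibroblast markers 3 were higher and 5 lower in both letters, with a median of -0.27, and their part in the lower collagens was not tested. The 3 higher were Fbln2, Cd34 and Sfrp2. Cd34 and Sfrp2 each had 1.97 against 1.77 normalized reads in A, under the floor of 3 reads, so their sign in A carries no weight.

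**Figure D3:**
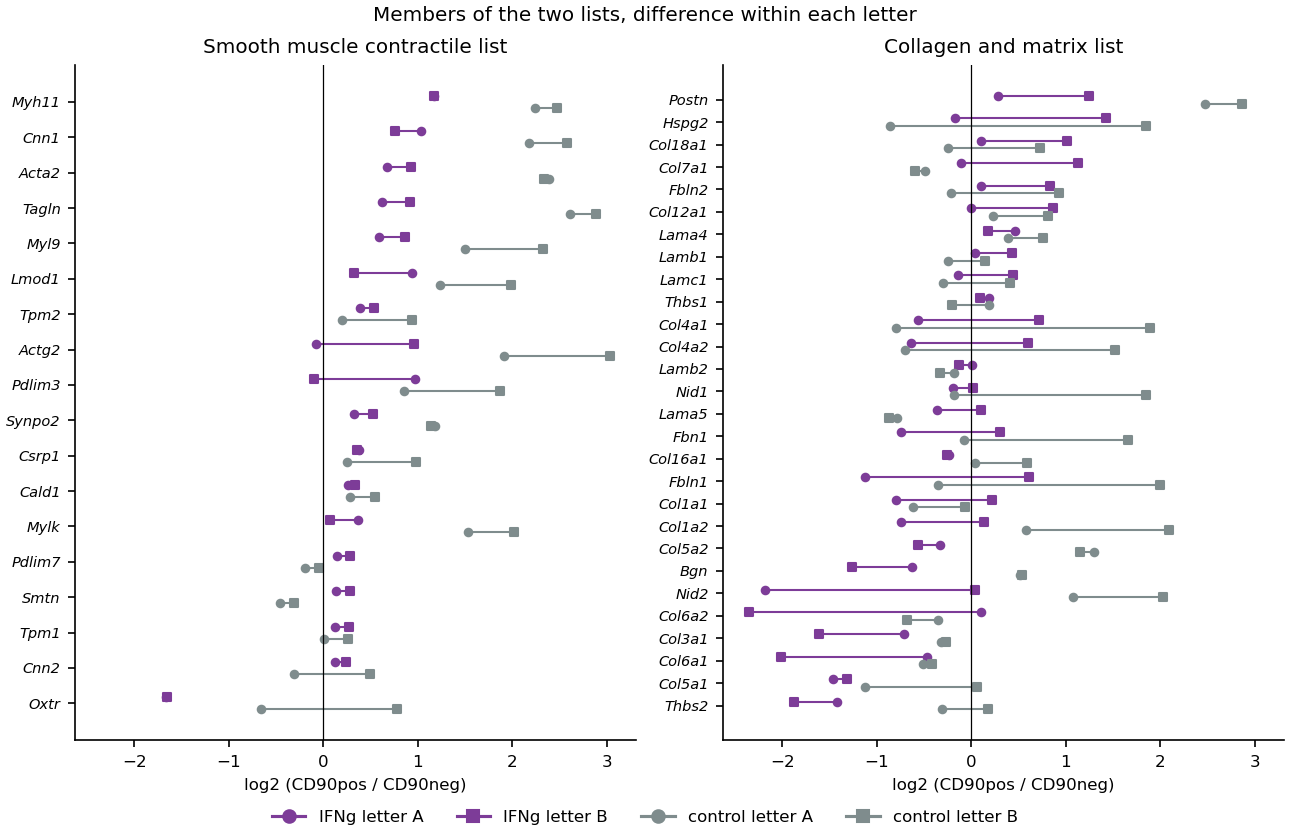
Log2 difference between CD90pos and CD90neg cells within each letter for 18 contractile genes (left) and 28 collagen and matrix genes (right), IFNg libraries in purple and control libraries in grey, letter A as circles and letter B as squares. Contractile genes lie mostly right of 0 with IFNg, closer to 0 than in control libraries for Acta2, Tagln and Cnn1, and matrix genes lie on both sides.

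No interferon-response gene was called by limma in 8 libraries between the populations after IFNg. Of 116 genes on 5 lists (IFNg signalling, guanylate-binding and immunity-related GTPases, both classes of antigen presentation, and antiviral genes), 110 were measured, and their median log2 difference was -0.01 (0.09 in A and -0.08 in B). Of these 110 none had an unadjusted p under 0.05, none differed by 1.5-fold or more in both letters, and 19 were higher and 19 lower in both letters. Their log2 differences ran from -0.52 to 0.40, and the list medians were 0.03 for signalling, 0.04 for antiviral genes, -0.02 for class I and -0.11 for class II presentation. The 95% confidence interval lay within 2-fold for 50 of the 110, against 80.8% of all genes tested, so equality is not shown for the others. In control libraries the GTPases among them had a median log2 difference of -1.50 in A and 0.38 in B. The transcription factor Irf1 had 23340 and 26816 normalized reads in CD90pos IFNg cells against 23697 and 30453 in CD90neg IFNg cells. The receptor chain Ifngr2 had 986 and 1609 against 911 and 1477, and the kinase Jak1 7504 and 7387 against 6800 and 7149. The negative regulator Socs1 had 798 and 875 against 759 and 803. In these signalling genes CD90pos and CD90neg cells lay close in both letters.

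Among the effectors, Gbp2, a guanylate-binding protein, had 145896 and 203423 normalized reads in CD90pos IFNg cells against 119928 and 219329 in CD90neg IFNg cells, and the class I light chain B2m had 113266 and 67106 against 112574 and 72556. The 22 GTPases had a median log2 difference of 0.00, made of 0.18 in A and -0.20 in B. Class II genes split by letter in the same way, with a median over 12 genes of 0.22 in A and -0.57 in B. Cd74, the invariant chain, had 1655 and 2272 normalized reads in CD90pos IFNg cells against 1121 and 3903 in CD90neg IFNg cells, so CD90pos cells were the higher in A and the lower in B. The gene of the checkpoint ligand PD-L1, Cd274, had 11388 and 2642 against 10893 and 2597.

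The T cell chemokines were higher in CD90pos IFNg cells in both letters, without being called. Cxcl9 had 127123 and 75388 normalized reads in CD90pos IFNg cells against 77049 and 53657 in CD90neg IFNg cells, and Cxcl10 had 41496 and 40202 against 29909 and 26178. The log2 difference of Cxcl9 was 0.61 (95% confidence interval -1.78 to 2.99) and that of Cxcl10 was 0.55 (-0.54 to 1.64), while Cxcl11, another ligand of the same receptor, had 0.66. Nos2, the inducible nitric oxide synthase, had 29166 and 17651 normalized reads in CD90pos IFNg cells against 18922 and 23194 in CD90neg IFNg cells, so the letters disagreed. Without IFNg, Nos2 was at 15.3 and 1.12 normalized reads in CD90pos cells (the second under the floor of 3 reads) against 87.5 and 32.3 in CD90neg cells, a difference called by limma (adjusted p 0.0359). For Nos2 the difference with IFNg less that without it was 3.32 (SE 0.92) on the log2 scale, with an adjusted p of 0.204 by limma. The value under the floor enters both this figure and the call without IFNg, so the size of each is uncertain.

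**Figure D4:**
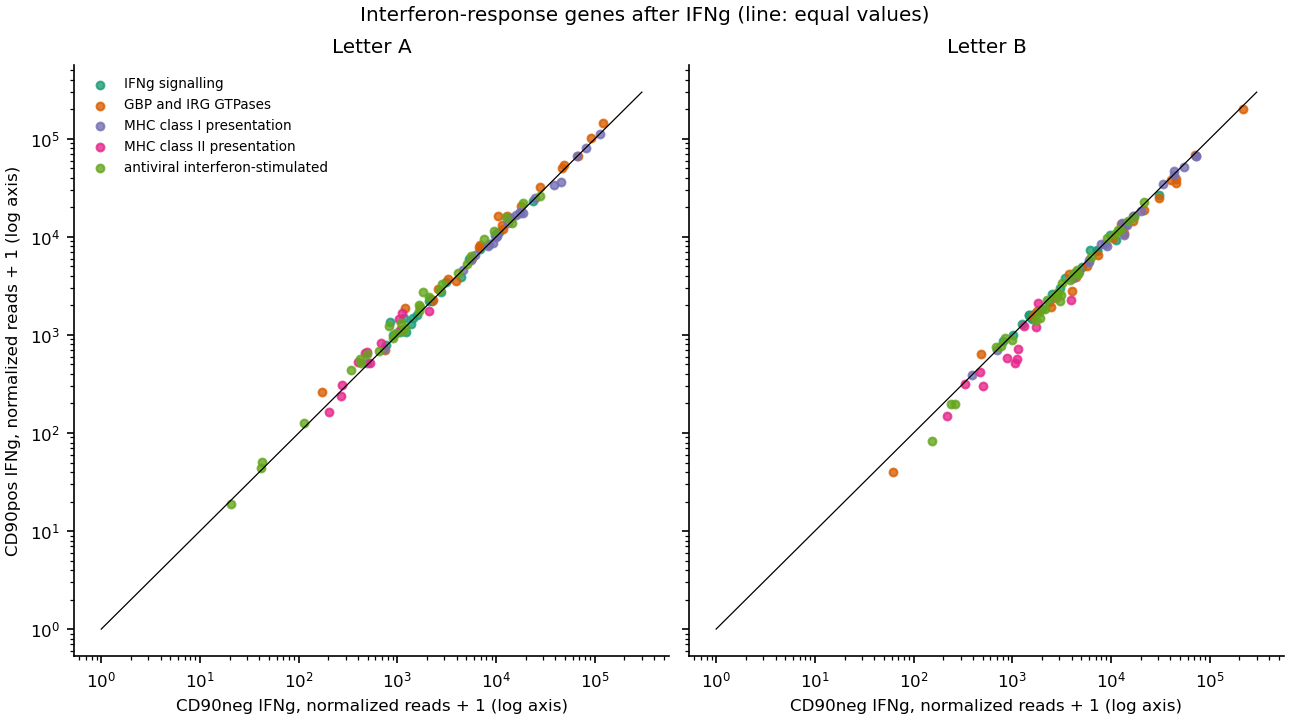
Normalized reads plus 1 (both axes log) of the 110 interferon-response genes measured, CD90pos IFNg on the y axis against CD90neg IFNg on the x axis, letter A on the left and letter B on the right. Points lie along the line of equal values over the whole range, with most class II genes (pink) above it in A and all of them but Ifi30 below it in B.

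Without IFNg the differences between the populations spread more widely over genes, with a median absolute log2 difference of 0.0856 with IFNg and 0.315 without. In control libraries limma with the letter block called 1451 of 12962 genes (11.2%), 881 higher (6.8%) and 570 lower (4.4%) in CD90pos cells, and DESeq2 called 2531 (19.5%). The limma count was not stable when a single library was left out. It fell far below 1451 without any 1 IFNg or CD90neg control library, fell less without CD90pos control B and rose without CD90pos control A. The IFNg libraries are not in this comparison but share its estimate of the spread. Leaving out a library also lowers the residual degrees of freedom, and the part of each was not tested. Without the replicate block the limma count was 0. These genes were chosen for their difference in control libraries, so a larger difference there than with IFNg follows in part from that choice. Of the 881 higher genes, 327 (37.1%) were higher in both letters with IFNg, where 26.1% of all genes were, and their median log2 difference with IFNg was 0.02. Of the 570 lower genes, 202 (35.4%) were lower in both letters with IFNg, where 26.9% of all genes were, and their median with IFNg was -0.03. At least 1.5-fold in both letters and in the same direction, 26 of the 881 (2.95%) and 6 of the 570 (1.05%) differed with IFNg, where 0.818% of all genes did in either direction.

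The test of the change itself, the difference with IFNg less that without it, called 0 genes by limma, with 2154 at an unadjusted p under 0.05 and a lowest adjusted p of 0.179. It called 0 by edgeR and 583 by DESeq2 (4.5%), 194 of them positive (1.5%) and 389 negative (3.0%). Acta2 had the smallest p among the negative ones named, at -1.56 (SE 0.17): without IFNg it had 3658 and 235195 normalized reads in CD90pos cells against 696 and 46629 in CD90neg cells, a log2 difference of 2.36 (SE 0.12). Tagln differed by 0.77 (SE 0.20) with IFNg and by 2.75 (SE 0.20) without it. Sat1, which catabolizes polyamines, had 5017 and 5561 normalized reads in CD90pos IFNg cells against 5358 and 6366 in CD90neg IFNg cells, and 7614 and 8420 against 3713 and 4443 without IFNg. In the other direction, Myh14, a nonmuscle myosin, had 2570 and 8688 against 2273 and 9484 with IFNg, and 1107 and 3559 against 2585 and 8412 without it.

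The contractile list had a median log2 difference of 0.43 with IFNg and 1.26 without, where limma called 9 of 18 higher, against 6.8% of all genes. Not every member was nearer to 0 with IFNg: Cnn2 differed by 0.18 with it and 0.09 without, and Tpm1 by 0.20 and 0.14. All 32 ribosomal protein genes were measured, and with IFNg their median log2 difference was -0.06. Of the 32, 0 were higher and 25 lower in both letters with IFNg, where 26.9% of all genes were lower in both, and the lowest log2 difference was -0.12. Without IFNg the median was 0.58 and limma called 23 of 32 higher, against 6.8% of all genes. Rps15a had 17394 and 14531 normalized reads in CD90pos IFNg cells against 18332 and 16092 in CD90neg IFNg cells, and 31807 and 25401 against 16009 and 15949 without IFNg. The 32 nuclear genes of oxidative phosphorylation had a median of -0.06 with IFNg and 0.40 without, where 13 were called higher. All these calls in control libraries come from the set of 1451, which was 0 without the replicate block and 0 without CD90neg control B. Postn, the matrix protein periostin, had 105 and 4172 normalized reads in CD90pos IFNg cells against 85.8 and 1762 in CD90neg IFNg cells, and 622 and 11887 against 111 and 1625 without IFNg. The log2 differences also moved with gene length, with Spearman correlations across 12954 genes of 0.169 with IFNg and -0.263 without, and the part of length in these lists was not tested beyond the count after removing the length trend, which was 0 with IFNg and 1046 without.

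**Figure D5:**
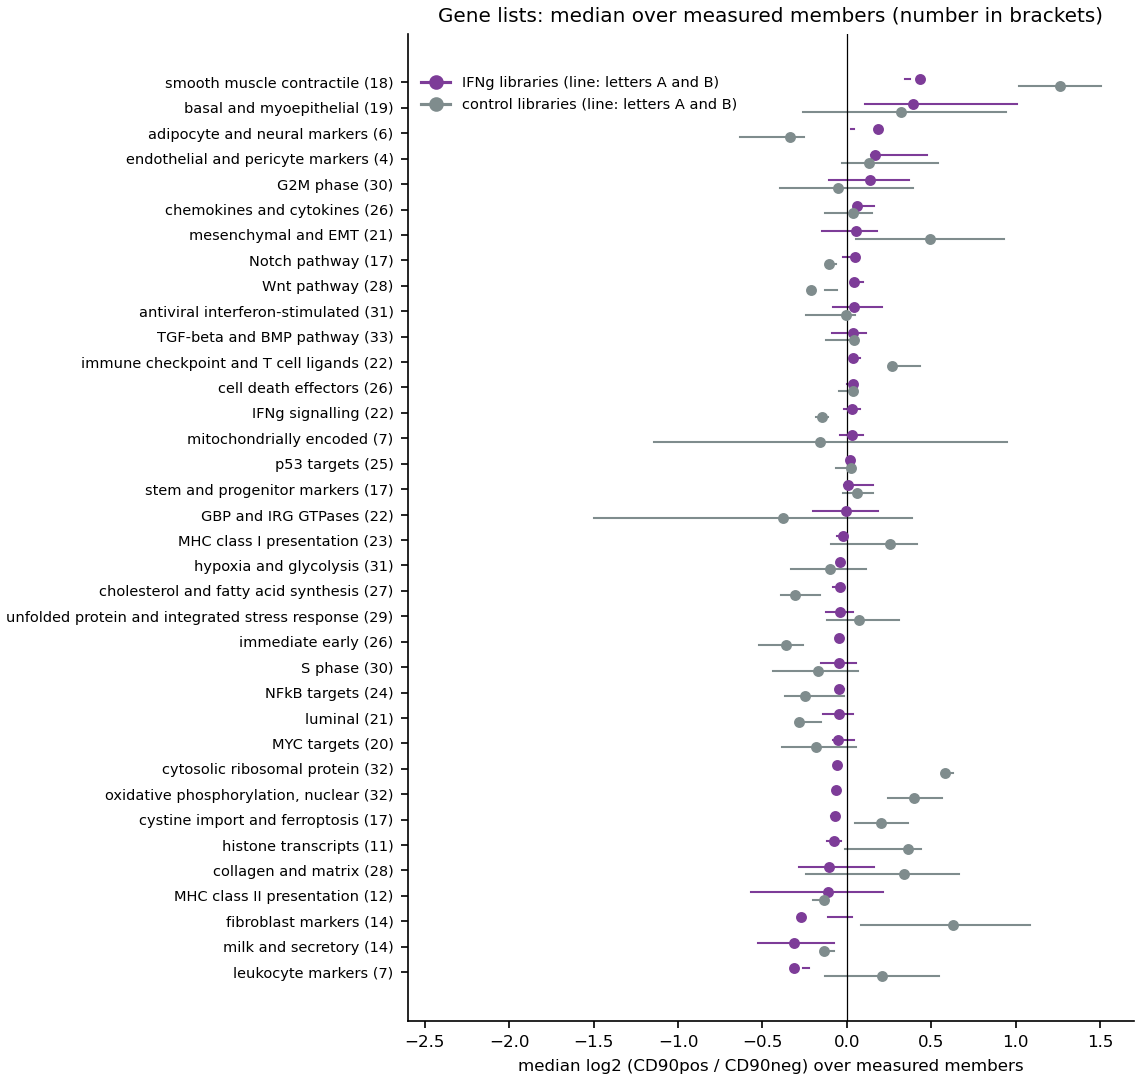
Median log2 difference between CD90pos and CD90neg cells over the measured members of 36 gene lists (numbers in brackets), IFNg libraries in purple and control libraries in grey. Lines span the medians of letters A and B, and a dot is the median of the letter averages, so it can lie off its line. Most purple dots lie near 0, with contractile genes at 0.43 and ribosomal protein genes at -0.06, against 1.26 and 0.58 in control libraries.

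Proliferation and stress genes showed small differences after IFNg. The 30 genes of the S phase list had a median log2 difference of -0.05 and the 30 of G2 and M phase 0.14, with -0.11 in A and 0.37 in B. Cenpf, a kinetochore protein, had 1893 and 3180 normalized reads in CD90pos IFNg cells against 1690 and 2235 in CD90neg IFNg cells. Of 25 p53 targets, 10 were higher and 5 lower in both letters with a median of 0.02, and for all 25 the 95% confidence interval lay within 2-fold. Fth1, the ferritin heavy chain that stores iron, had 22966 and 14135 normalized reads in CD90pos IFNg cells against 31801 and 19384 in CD90neg IFNg cells, a log2 difference of -0.46 (SE 0.15), and many processed copies of this gene make its count uncertain. Cd40, a costimulatory receptor, had 39.5 and 53.1 against 15.9 and 31.5, a log2 difference of 0.997 (SE 0.47). Neither gene was called by limma in 8 libraries.

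In the remaining lists no member was called by limma in 8 libraries either, and most medians lay close to that of all genes. The median log2 difference was 0.04 for the Wnt pathway, 0.05 for Notch, 0.04 for TGF-beta and BMP, 0.03 for cell death effectors, and 0.01 for stem and progenitor markers. It was 0.06 for chemokines and cytokines, 0.04 for checkpoint and T cell ligands, 0.05 for mesenchymal genes and 0.03 for mitochondrially encoded genes. Negative medians were -0.05 for NFkB targets, -0.05 for immediate early genes, -0.04 for the unfolded protein response, -0.04 for hypoxia and glycolysis, and -0.04 for cholesterol and fatty acid synthesis. MYC targets had -0.05, genes of cystine import and ferroptosis -0.07, and histone transcripts -0.07. Among markers of other cell types the medians were -0.32 for the 7 leukocyte genes, 0.17 for 4 endothelial and pericyte genes and 0.19 for 6 adipocyte and neural genes. Mcam, a surface adhesion molecule of pericytes that basal epithelium can also express, had 1316 and 5374 normalized reads in CD90pos IFNg cells against 855 and 3572 in CD90neg IFNg cells.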

How the data were processed

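RNA from sorted cells was extracted with a kit for small inputs and made into libraries with a stranded mRNA kit, per the labels' protocols. The submitters' processing notes name STAR and HTSeq, with no versions, and the builds mm10 and GRCm38. The authors deposited 1 table of normalized read values (a signal never below 0) for 12964 genes in 8 libraries. Every value was a whole multiple of 1 step per library within 0.001 (100% of values), so whole reads were recovered. A floor of 3 reads equals 2.55 to 3.37 normalized reads, and floors cover counting error only. The lowest maximum of a gene was 43.4, so genes low in all libraries are not represented. Of 12964 gene identifiers, 12956 matched GENCODE vM21, the source of gene lengths, 11385 of them with the same version. Gene coordinates are those deposited with the values, and 11911 of them were identical in GENCODE vM21. Among the gene symbols, 2 occurred more than 1 time.

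The 12962 genes at 10 or more in at least 2 libraries were tested, two-sided, with limma 3.58.1 (R 4.3.3) on log2(value + 1), with a trend of variance on mean and 3 residual degrees of freedom. Fold changes on this scale understate changes of low genes. edgeR 4.0.16 and DESeq2 1.42.0 on recovered reads were alternatives. The letter was used as a block because same-letter libraries deviated together: the A minus B differences correlated at 0.779 to 0.920 over the 6 pairs of groups. From each of 36 gene lists the 2 members with the smallest p are named as not called, along with 5 genes per direction for the change with IFNg. The genes, lists and tests were chosen with earlier results of these data known. Other genes printed as members of a list were chosen after their values were seen.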

Additional observations from a re-analysis of the deposited data

How the results depend on the processing

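The number of genes called between CD90pos and CD90neg cells after IFNg was 0 in limma with the replicate block, and 0 without the block, with other pseudocounts, filters and scalings, after removing the length trend, without the variance trend, in edgeR on 8 libraries and without each library in turn (0 to 0). It was 10 in limma on the 4 IFNg libraries, 17 in DESeq2 and 1 in edgeR on the 4 IFNg libraries, which was added as an alternative after the data had been seen. Without IFNg the count of 1451 became 0 with no replicate block, 0 with no variance trend, 2531 in DESeq2, and 0 to 2468 without each library in turn. The change of the difference with IFNg had 0 calls in limma and edgeR and 583 in DESeq2. The causes were not tested.

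Of 2056 values of single named genes under 21 alternatives, 2011 kept their direction and side of the threshold, 33 were newly called (26 in DESeq2) and 12, in 11 genes, turned their sign without 1 library. Of the 36 list medians, 25 changed sign under at least 1 alternative, among them all 5 interferon lists, and those of contractile, basal and secretory genes kept their sign. Over the libraries left out in turn, the log2 difference of the 11 genes ran from -0.393 to 0.0538 for Gbp9, -0.499 to 0.0995 for H2-T23, -1.14 to 0.530 for H2-Eb1, -0.277 to 0.0506 for Rfxap, -0.0114 to 0.526 for Oas1g, -0.0115 to 0.552 for Perp, -0.00378 to 0.490 for Cenpe, -0.502 to 0.133 for mt-Nd6, -0.233 to 0.00236 for Insig1, -0.0227 to 0.445 for Eng and -0.140 to 1.21 for Tubb3. Values under the floor of 3 reads carry no fold, and the limma fit of 8 libraries also missed Thy1, so a missed call sets no bound on a difference.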
